A study of Mus musculus with 20 samples.

Results

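Spleens of Eµ-PRMT5/TCL1 mice were set against spleens of Eµ-TCL1 mice by single-cell RNA-sequencing (scRNA-seq), class of cell by class of cell. Both groups carried a human TCL1 transgene, a T-cell leukaemia oncogene placed under the Eµ enhancer of the immunoglobulin heavy chain locus so as to be active in B cells. Eµ-PRMT5/TCL1 mice carried in addition human PRMT5, an arginine methyltransferase, under the same kind of B-cell control, from 1 founder line crossed with Eµ-TCL1. The labels give C57BL/6N as the strain of every sample, whereas the methods of the study put the parental Eµ-TCL1 mice on C57BL/6J. No age, sex or batch is given in the labels, and tissue was taken from diseased mice at the removal criteria. There were 4 spleens in each group, out of 20 libraries in the series, each deposited as a sample of its own. Unsorted live cells were loaded, so that all classes of 1 spleen came from the same library.

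Barcodes with 1500 or more unique molecular identifiers (UMIs, which count each captured RNA molecule once), 200 or more detected genes and no more than 10% of UMIs from mitochondrial genes entered the comparison. This left 43738 barcodes in the 8 spleens, of 97181 in the whole series. B cells needed at least 3 UMIs of Cd79a and Cd79b, the signalling chains of the B-cell receptor, with no UMI of the CD3 chains and under 20 of Jchain. T cells needed at least 2 UMIs of the CD3 chains and at most 1 of Cd79a and Cd79b. Myeloid cells needed at least 5 UMIs of Lyz2, the lysozyme of neutrophils, monocytes and macrophages, with no CD3 and at most 1 Cd79 UMI. The gates took in 34706 barcodes, namely 20076 B cells, 11016 T cells and 3614 myeloid cells, and UMIs were then summed per spleen and class.

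The Eµ-TCL1 mouse is a model of chronic lymphocytic leukaemia (CLL), in which a B-cell clone slowly fills spleen, blood and nodes, and the second transgene was added to ask about progression to large cell disease (Richter's transformation). PRMT5 places symmetric dimethyl marks on arginines of histones and of the Sm proteins of the spliceosome, acting in a complex with Wdr77. The transgenes are designed for B cells, and T cells and myeloid cells share the spleen with the leukaemia, a disease known for exhausted T cells and altered monocytes. The comparison asks what goes with the second transgene in the B cells and in the cells around them.

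Libraries held 37096237 to 55982586 UMIs in all, and kept 3711 to 6907 barcodes. Some classes were thin: Eµ-PRMT5/TCL1 spleen 2 had 302 B cells, Eµ-PRMT5/TCL1 spleen 1 had 213 T cells and 54 myeloid cells, and Eµ-TCL1 spleen 2 had 47 myeloid cells. Barcodes positive for both Cd79 and CD3, which the gates leave out, were 1.21% to 13.2% of a library. Pairs of the 8 libraries shared 19 to 71 barcode sequences, where 23.6 to 59.5 would be shared at random. Y-linked genes exceeded Xist in 3 of 4 Eµ-TCL1 spleens and in 1 of 4 Eµ-PRMT5/TCL1 spleens, so that sex and genotype were partly confounded. Eµ-TCL1 spleen 1 was the only one of its group with Xist above them, and Eµ-PRMT5/TCL1 spleen 4 the only one with Xist below. Both stand apart from their groups in several results below, and the part of sex in this was not tested. Summed markers of B cells reached at least 19347 CPM (here plain UMIs scaled to the same total in every library) in every B-cell sum, and myeloid markers at least 40871 CPM in every myeloid sum. T-cell markers were lower, at 3927 to 6985 CPM in the T-cell sums, where myeloid markers lay between 266 and 7557 CPM. Each of these marker lists includes genes that the gates use, so that its level in its own class is favoured by the gates. For single genes tested within a class, CPM are in addition scaled by edgeR's TMM factors, and for RNA outside cells they are plain. The human transgenes may be invisible to a mouse reference and were not checked in the libraries.

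The makeup of the spleen varied more within the groups than between them. B cells were 14.3%, 80.1%, 28.2% and 45.9% of kept barcodes in Eµ-TCL1 spleens 1 to 4, and 87.3%, 8.14%, 31.8% and 48.1% in Eµ-PRMT5/TCL1 spleens 1 to 4. Each group held both a spleen that was mostly B cells and a spleen with few. The means were 42.1% ± 28.4 (SD, n = 4) and 43.8% ± 33.3 (SD, n = 4), and the exact two-sided permutation test over spleens gave p = 0.914. T cells made up 26.5% ± 12.1 of Eµ-TCL1 and 26.9% ± 18.5 of Eµ-PRMT5/TCL1 spleens (SD, n = 4 each, exact p = 0.971). Myeloid cells were 8.76% ± 6.83 and 9.66% ± 11.5 (SD, n = 4 each, exact p = 0.886), and barcodes outside the 3 classes 22.6% and 19.6% (exact p = 0.571). Adjusted over these 4 tests p was 0.971 for each, where 0.0286 is the smallest unadjusted p that 4 against 4 spleens allow. The SD within each group was larger than the difference between the means in every class.

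**Figure D1:**
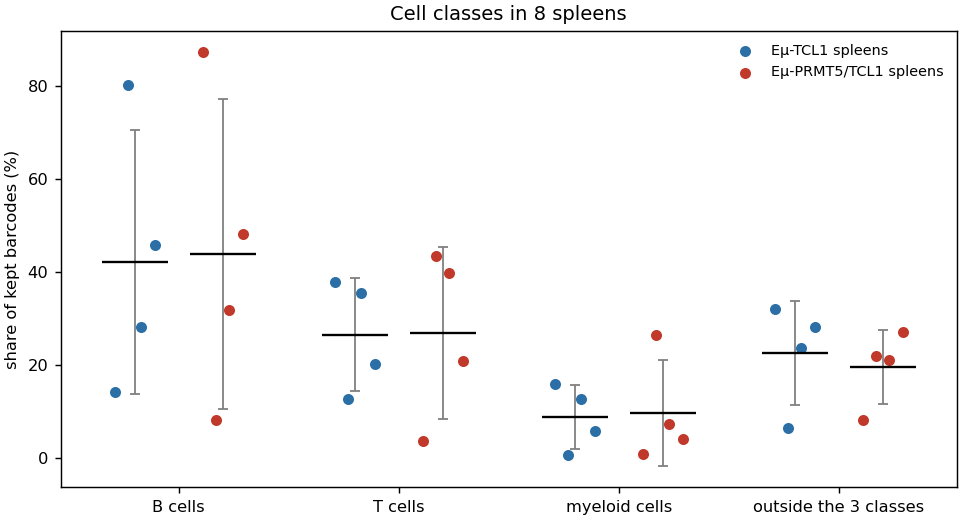
Share of kept barcodes (%, vertical axis) that fell in each class in 8 spleens, Eµ-TCL1 in blue and Eµ-PRMT5/TCL1 in red, with group means (black lines) and SD (grey bars). B cells span 14.3% to 80.1% in Eµ-TCL1 and 8.14% to 87.3% in Eµ-PRMT5/TCL1 spleens, and the groups overlap in every class.

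The B cells of most spleens were dominated by single immunoglobulin V genes, and the leading V gene differed between most mice. The leading heavy chain V gene held 99.6% of Ighv UMIs in Eµ-TCL1 spleen 1 (Ighv1-55), 94.3% in spleen 2 and 99.0% in spleen 4 (both Ighv12-3), and 37.5% in spleen 3 (Ighv1-26). In Eµ-PRMT5/TCL1 spleens it held 63.1% (Ighv8-2, spleen 1), 98.5% (Ighv5-9-1, spleen 2), 88.9% (Ighv1-9, spleen 3) and 89.4% (Ighv1-52, spleen 4). Eµ-TCL1 spleens 2 and 4 shared both Ighv12-3 and the leading kappa gene Igkv4-91, which held 66.0% and 60.2% of their Igkv UMIs. Eµ-TCL1 spleen 1 and Eµ-PRMT5/TCL1 spleen 1 both had Igkv12-89 as leading kappa gene, at 99.5% and 95.4%. Eµ-PRMT5/TCL1 spleen 1 further held Ighv1-55, the leading gene of Eµ-TCL1 spleen 1, as 36.9% of its Ighv UMIs. The pair of Eµ-TCL1 spleens 2 and 4 came second in Eµ-PRMT5/TCL1 spleen 3, with Ighv12-3 at 9.44% and Igkv4-91 at 39.3%.

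In B cells Eps8l1, Lta and Tnf lay higher in Eµ-PRMT5/TCL1 spleens, although no gene passed the edgeR test over all genes. edgeR's quasi-likelihood test, with Benjamini-Hochberg adjustment over 11483 genes, called 0 genes (0.00%). At an unadjusted p below 0.05 there were 762 genes (6.64%), of which 280 (2.44%) were higher and 482 (4.20%) lower in Eµ-PRMT5/TCL1. DESeq2 called 62 genes (0.540%) on the same sums. All B-cell genes below are thus differences in level with an error, and none was a call of the main test.

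Eps8l1 encodes a relative of EPS8, a regulator of the actin skeleton, and lies on chromosome 7 at 4460674 to 4480487 (plus strand, GRCm38). Its B-cell level was 0, 0, 0.0903 and 0 CPM in Eµ-TCL1 spleens 1 to 4 and 6.42, 2.89, 4.93 and 6.50 CPM in Eµ-PRMT5/TCL1 spleens 1 to 4. Every Eµ-PRMT5/TCL1 spleen lay above every Eµ-TCL1 spleen, as was so for 1.63% of all genes tested. The 4 Eµ-TCL1 spleens together held 1 Eps8l1 UMI against 425. Per UMI the pooled ratio was 483, with a 95% interval of 86.2 to 19109 for counting error only. The fitted log2 difference of 7.94 ± 0.86 (SE) depends on the prior count and had an adjusted p of 0.0591 by edgeR.

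T cells of the same spleens did hold Eps8l1, at 3.72 to 10.7 CPM in Eµ-TCL1 and 3.52 to 8.99 CPM in Eµ-PRMT5/TCL1 spleens, with a log2 difference of -0.27 ± 0.41 (SE, edgeR adjusted p = 0.837). In RNA outside cells it was 0 to 7.57 CPM in Eµ-TCL1 and 2.67 to 8.08 CPM in Eµ-PRMT5/TCL1 spleens. The B-cell difference exceeded the T-cell difference by 8.20 ± 0.88 (SE) on the log2 scale, in a model with the mouse as a block, and this interaction passed (edgeR adjusted p = 0.0477), but not with a higher UMI minimum per barcode (adjusted p = 0.0637). It was the only gene called of 12195 in that test (0.00820%), against 768 (6.30%) at an unadjusted p below 0.05. With single spleens left out the adjusted p of Eps8l1 lay between 0.0179 and 0.425, and it passed in 1 of 8 such fits, the one without Eµ-TCL1 spleen 1. No gene of 11680 was called between B and myeloid cells (0.00%), with 553 (4.73%) at an unadjusted p below 0.05.

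Lta (lymphotoxin alpha) and Tnf are neighbouring genes of 2 related cytokines on chromosome 17, at 35203165 to 35205351 and 35199381 to 35202007 on the minus strand (GRCm38). Lta was 2.64, 1.83, 0.812 and 1.24 CPM in Eµ-TCL1 and 9.38, 9.39, 14.3 and 13.4 CPM in Eµ-PRMT5/TCL1 B cells, spleens 1 to 4 in each case. Tnf was 5.43, 9.67, 4.96 and 2.80 CPM against 12.5, 34.3, 25.6 and 34.1 CPM. Neither gene overlapped between the groups, where 1.63% of all genes were higher without overlap. The log2 differences were 2.86 ± 0.38 for Lta and 2.20 ± 0.43 for Tnf (SE, edgeR adjusted p = 0.171 and 0.583), and DESeq2 called both. In T cells Tnf, chosen there after its values had been seen, was also higher without overlap (log2 difference 1.53 ± 0.41), as 1.81% of all genes were. Lta was not (-0.31 ± 0.55). Eps8l1 and Lta lie under the level asked of named genes and were singled out after their values had been seen.

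**Figure D2:**
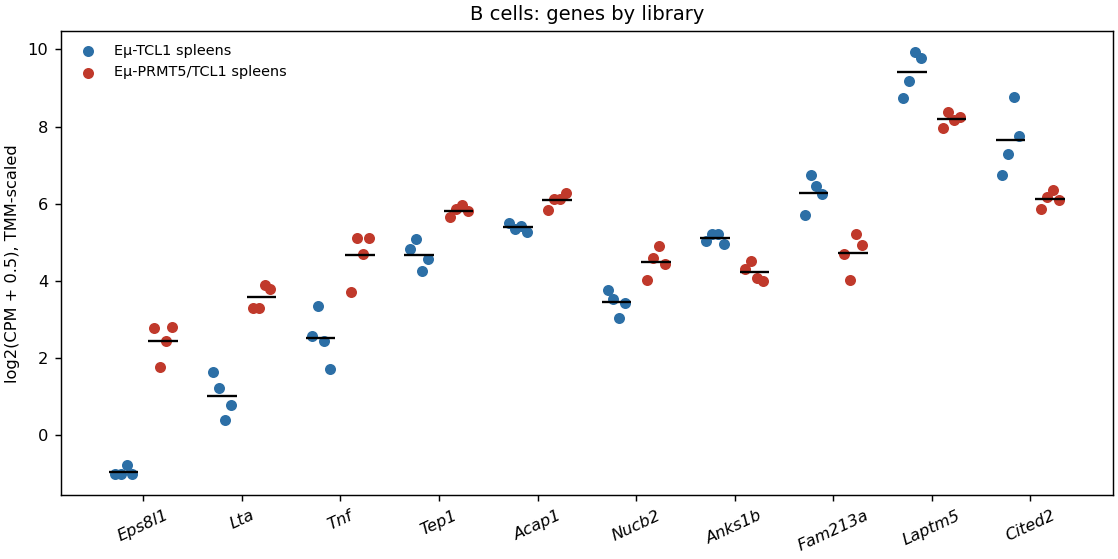
Level of 10 genes in B cells on the scale log2(CPM + 0.5) (vertical axis), 1 point per spleen, Eµ-TCL1 in blue and Eµ-PRMT5/TCL1 in red, black lines for group means. All 10 genes separate the groups without overlap, from Eps8l1 with 0 to 0.0903 CPM in Eµ-TCL1 spleens to Laptm5 at 429 to 971 CPM. They were chosen by low p or after their values were seen, which favours this (3.57% of all genes separate the groups).

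The other B-cell genes with the lowest p at 20 CPM or more were Tep1, Acap1 and Nucb2 on the higher side, and Anks1b, Fam213a, 1600020E01Rik, Cd200, Leprotl1, Laptm5, Pea15a and Cited2 on the lower side. All 11, and Tnf, separated the groups without overlap, which their choice by p in the same comparison favours, so that nothing is read from it (over all genes 3.57% did, 1.63% on the higher and 1.94% on the lower side). Laptm5, a lysosomal membrane protein that lowers the surface level of antigen receptors, was 429, 585, 971 and 879 CPM in Eµ-TCL1 and 249, 331, 290 and 304 CPM in Eµ-PRMT5/TCL1 spleens. Its log2 difference was -1.29 ± 0.28 (SE, edgeR adjusted p = 0.589). Cited2, a transcriptional co-regulator, was 108, 157, 433 and 217 CPM against 57.7, 71.9, 82.2 and 67.8 CPM (-1.71 ± 0.39). The Eµ-PRMT5/TCL1 spleens were lower and closer together for both genes. Tep1, a telomerase-associated protein, was 18.6 to 33.5 CPM in Eµ-TCL1 and 49.7 to 61.6 CPM in Eµ-PRMT5/TCL1 spleens (log2 difference 1.12 ± 0.20). The differences of the remaining genes ran from -1.56 ± 0.29 (Fam213a) to 1.09 ± 0.24 (Nucb2).

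Of genes that mark CLL cells at the surface, 9 of 13 tested were above 0 in log2 difference, with a median of 0.25 beside -0.00023 over all genes. Cd200, a surface glycoprotein with an inhibitory receptor on myeloid cells, was 35.1, 46.0, 41.4 and 40.6 CPM in Eµ-TCL1 and 25.9, 26.4, 26.1 and 23.7 CPM in Eµ-PRMT5/TCL1 spleens (log2 difference -0.68 ± 0.14). Cd38, an ectoenzyme tied to CLL of worse course, was 46.8 to 84.3 CPM in Eµ-TCL1 and 99.2 to 183 CPM in Eµ-PRMT5/TCL1 spleens (0.96 ± 0.27). Both separated the groups, in opposite directions, which their choice by p favours (3.57% of all genes did), and neither passed (edgeR adjusted p = 0.589 and 0.729).

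Among 18 transcription factors of B-cell identity, 4 were lower and 2 higher at an unadjusted p below 0.05, beside 4.20% and 2.44% of all genes, and the median was -0.21. Without Eµ-TCL1 spleen 2 the median was -0.0080, and without Eµ-PRMT5/TCL1 spleen 4 it was -0.069. Prdm1 (Blimp-1), which drives plasma cell differentiation, was 55.5, 48.5, 30.6 and 58.2 CPM in Eµ-TCL1 and 20.1, 12.3, 13.6 and 36.6 CPM in Eµ-PRMT5/TCL1 spleens (log2 difference -1.20 ± 0.36). Xbp1, the factor of secretory capacity, differed by -1.25 ± 0.50 (-0.62 without Eµ-TCL1 spleen 4), and Pou2af1, a co-activator of immunoglobulin genes, by -0.67 ± 0.25. The summed markers of plasma cells in the B-cell class, all 6 with a UMI and including Prdm1, Xbp1 and Jchain, were at 1195 to 3149 CPM in Eµ-TCL1 and 903 to 1460 CPM in Eµ-PRMT5/TCL1 spleens. The B-cell gate left out barcodes with 20 or more Jchain UMIs. Outside the classes, without those positive for both Cd79 and CD3, these were 4.00%, 0.0869%, 1.18% and 1.17% of kept barcodes in Eµ-TCL1 spleens 1 to 4. In Eµ-PRMT5/TCL1 spleens 1 to 4 they were 4.39%, 0%, 0.171% and 13.7%. The part of this limit and of plasma cells in these differences was not tested. Foxo1, a factor of B-cell quiescence, differed by -1.19 ± 0.46, while Bcl11a (0.85 ± 0.26, and 0.57 without Eµ-PRMT5/TCL1 spleen 1) and Spib (0.61 ± 0.26) were higher without overlap, as 1.63% of all genes were. The edgeR adjusted p was 0.729 for each.

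Receptors that place B cells in lymphoid tissue were split, with 11 of 16 above 0. Gpr183, the oxysterol receptor that draws B cells to follicle borders, was 13.8, 25.8, 7.22 and 26.1 CPM in Eµ-TCL1 and 51.0, 50.6, 26.3 and 80.3 CPM in Eµ-PRMT5/TCL1 spleens (log2 difference 1.50 ± 0.44). S1pr2, which holds B cells in germinal centres, lay the other way at 3.52 to 9.49 against 0.971 to 3.44 CPM (-1.23 ± 0.48). Among 17 glycolysis genes 15 were above 0, as 49.9% of all genes were, and 3 were higher at an unadjusted p below 0.05 (2.44% of all genes), namely Ldha (0.62 ± 0.25), Pgk1 (0.51 ± 0.21) and Pfkl (0.54 ± 0.22), with a median of 0.32. Ldha and Pgk1 were highest in Eµ-PRMT5/TCL1 spleen 4, at 587 and 197 CPM, and without it they differed by 0.34 and 0.31. Leaving that spleen out gave a median of 0.21 and leaving Eµ-TCL1 spleen 4 out gave 0.19, each with 1 gene at an unadjusted p below 0.05.

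Cell-cycle genes in B cells were on the higher side, within the spread between mice. All 26 S phase genes and 25 of 27 mitosis genes were above 0, where 49.9% of all genes tested were, with medians of 0.56 and 0.43 and 0 genes at an unadjusted p below 0.05. Eµ-TCL1 spleen 1 was an exception within its group, with Mki67 at 89.2 CPM against 6.47, 23.1 and 28.5 CPM in the other three. Without it, the S phase median was 1.08 with 19 of 26 genes at an unadjusted p below 0.05. Over all genes 1343 of 11705 had such a p in that fit, against 762 of 11483 with all spleens. The Eµ-TCL1 spleens left in it all had Y-linked genes above Xist. Without Eµ-PRMT5/TCL1 spleen 4 the S phase median was 0.25 with 21 of 26 genes above 0, and the mitosis median 0.06. Without Eµ-TCL1 spleen 2 the mitosis median was 0.11. Immediate early genes, the first response to a stimulus, were above 0 for 24 of 28 genes (median 0.46). Without Eµ-PRMT5/TCL1 spleen 4 that count was 14 of 28.

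The genes named by the study for Eµ-PRMT5/TCL1 B cells all overlapped between the groups. Myc was 131, 74.9, 171 and 69.5 CPM in Eµ-TCL1 and 181, 79.5, 121 and 368 CPM in Eµ-PRMT5/TCL1 spleens (log2 difference 0.75 ± 0.48, edgeR adjusted p = 0.793). Il10, an immunosuppressive cytokine of B cells, was 96.3, 16.1, 23.6 and 21.5 CPM against 62.4, 41.5, 52.4 and 125 CPM (0.86 ± 0.59). Cd274 (PD-L1) was 99.9, 26.3, 37.5 and 23.5 CPM against 73.0, 68.3, 59.3 and 120 CPM (0.79 ± 0.46). For Il10 and Cd274 the single Eµ-TCL1 spleen 1 overlapped, and the other Eµ-TCL1 spleens were below every Eµ-PRMT5/TCL1 spleen. Egr1 (0.47 ± 0.94), Mki67 (0.25 ± 0.67), Cxcr5 (0.15 ± 0.32), Ccr7 (-0.02 ± 0.65) and Ctla4 (-0.31 ± 0.68) differed by less than their SE. Of these 8 genes 6 were above 0 and 0 had an unadjusted p below 0.05. When Eµ-PRMT5/TCL1 spleen 4 was left out, 3 of 8 were above 0 and the median turned from 0.36 to -0.070. Myc then differed by 0.20, Il10 by 0.42 and Egr1 by -1.17. When Eµ-TCL1 spleen 1 was left out, Il10 differed by 1.80 and Cd274 by 1.47. In T cells the same genes were at 1.83 ± 0.66 (Mki67), 0.74 ± 1.10 (Ctla4), 0.43 ± 0.54 (Egr1), 0.35 ± 0.29 (Cd274), 0.22 ± 1.10 (Il10), 0.00 ± 0.57 (Cxcr5), -0.08 ± 0.52 (Myc) and -0.63 ± 0.45 (Ccr7). The list was chosen by the study on these samples and is no independent evidence of a direction.

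Endogenous Prmt5, read from mouse transcripts, overlapped between the groups in B cells at 18.5 to 23.2 CPM in Eµ-TCL1 and 19.5 to 28.3 CPM in Eµ-PRMT5/TCL1 spleens (log2 difference 0.21 ± 0.17, edgeR adjusted p = 0.815). Its partner Wdr77 differed by 0.24 ± 0.23 in B cells, and in myeloid cells by -0.75 to -0.39 with single spleens left out. Coprs, a histone-binding cofactor of PRMT5, was 7.24, 15.5, 7.49 and 4.54 CPM against 2.84, 4.70, 3.89 and 2.93 CPM, with overlap (-1.31 ± 0.40, adjusted p = 0.729, and -0.86 without Eµ-TCL1 spleen 2). In T cells Prmt5 was 19.5, 24.1, 39.8 and 22.6 CPM against 34.4, 31.3, 95.8 and 31.2 CPM (0.88 ± 0.41, adjusted p = 0.552), with overlap and with Eµ-PRMT5/TCL1 spleen 3 above all others. Leaving that spleen out brought the difference to 0.28. In myeloid cells it was 3.22 to 11.8 CPM against 8.80 to 12.8 CPM (0.20 ± 0.28). The other partners and substrates tested, Riok1, Clns1a, Snrpb, Snrpd1, Snrpd3 and Lsm4, lay between -0.26 and 0.31 in the 3 classes, and of the 9 genes 5 were above 0 in B, 7 in T and 3 in myeloid cells.

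In T cells the log2 differences of the S phase and mitosis genes tested were all above 0, while the levels of both lists overlapped between the groups. The S phase level of Eµ-PRMT5/TCL1 spleen 3 (-0.13, the median over genes of log2(CPM + 0.5) less the mean of the 8 spleens) lay below that of Eµ-TCL1 spleen 1 (-0.02), as did its mitosis level (-0.30 against 0.46). edgeR called 0 of 10697 genes (0.00%), with 973 at an unadjusted p below 0.05 (9.10%), 535 higher (5.00%) and 438 lower (4.09%). By DESeq2 there were 44 (0.411%). All 26 S phase genes were above 0, with a median of 1.25 beside -0.0274 over all genes tested, and 24 of them had an unadjusted p below 0.05. Of the 26, 6 passed in DESeq2. All 27 mitosis genes were above 0 as well, with a median of 1.76 and 23 at an unadjusted p below 0.05. Genes of the cell cycle vary together within a spleen, so that these counts are not separate measurements.

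Single genes show how the spleens were ordered. Mcm5, a subunit of the replicative helicase, was 37.2, 22.4, 25.2 and 23 CPM in Eµ-TCL1 and 87.6, 56.9, 39.8 and 103 CPM in Eµ-PRMT5/TCL1 T cells (log2 difference 1.39 ± 0.31, edgeR adjusted p = 0.548). Top2a, the topoisomerase of dividing cells, was 65.8, 13.4, 27.8 and 6.11 CPM against 171, 94.8, 47.1 and 142 CPM (1.96 ± 0.66). The groups did not overlap for Mcm5 and overlapped for Top2a, where Eµ-PRMT5/TCL1 spleen 3 lay below Eµ-TCL1 spleen 1. Pola1 (1.40 ± 0.30), Mcm3 (1.42 ± 0.33) and Lig1 (1.01 ± 0.23), of DNA polymerase, helicase and ligase, separated the groups, whereas Rrm2 (2.67 ± 0.77), Mki67 (1.83 ± 0.66, and 2.78 without Eµ-TCL1 spleen 1) and Tacc3 (1.51 ± 0.43) did not. In all, 9 of 26 S phase and 0 of 27 mitosis genes were higher without overlap, where 1.81% of all genes were.

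T cells with an Mki67 UMI, at an expected 1500 UMIs per cell, were 2.81%, 0.379%, 0.683% and 0.271% in Eµ-TCL1 and 7.32%, 3.22%, 1.52% and 5.18% in Eµ-PRMT5/TCL1 spleens. The means of 1.04% ± 1.19 and 4.31% ± 2.50 (SD, n = 4 each) differed with an exact p of 0.0571, and 0.343 after adjustment over 16 marker shares. Without thinning the means were 2.63% and 10.6% (exact p = 0.0571). B cells of the same spleens, which also divide, held 2.53% and 3.38% at 1500 UMIs. With stricter gates, at least 4 CD3 UMIs and no Cd79 UMI, 25 of 27 mitosis genes had an unadjusted p below 0.05, against 23 with the main gates. Over all genes this was 996 of 10335 against 973 of 10697. Leaving out single spleens gave S phase medians of 1.08 to 1.48 and mitosis medians of 1.50 to 2.44. The number of mitosis genes at an unadjusted p below 0.05 then ran from 10, without Eµ-PRMT5/TCL1 spleen 4 (765 of all 11210 genes in that fit), to 25. The count over all genes changed as well, from 459 of 11198 without Eµ-TCL1 spleen 4 to 1784 of 10358 without Eµ-TCL1 spleen 1.

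**Figure D3:**
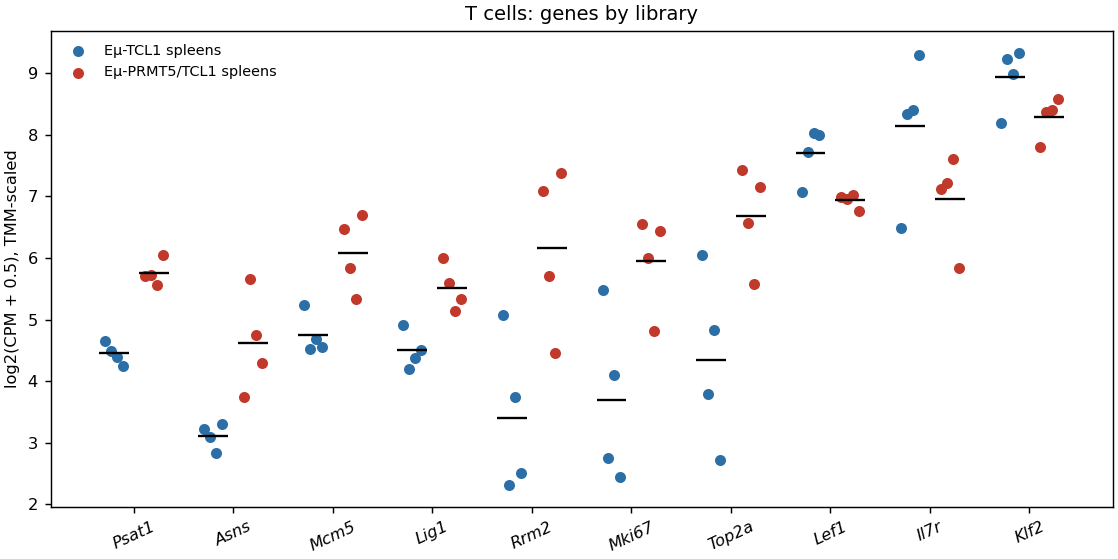
Level of 10 genes in T cells on the scale log2(CPM + 0.5) (vertical axis), 1 point per spleen, Eµ-TCL1 in blue and Eµ-PRMT5/TCL1 in red, black lines for group means. Psat1, Asns, Mcm5 and Lig1 are higher and Lef1 lower in Eµ-PRMT5/TCL1 spleens without overlap, while Rrm2, Mki67, Top2a, Il7r and Klf2 overlap between the groups. Most were chosen by low p or after their values were seen, which favours separation (4.13% of all genes separate the groups).

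The gene with the lowest p in T cells was Psat1, an enzyme of serine synthesis. It was 24.7, 22.1, 20.6 and 18.6 CPM in Eµ-TCL1 and 51.6, 52.1, 46.5 and 66.0 CPM in Eµ-PRMT5/TCL1 spleens (log2 difference 1.33 ± 0.17, edgeR adjusted p = 0.195). Asns, asparagine synthetase, was 8.79, 8.05, 6.63 and 9.40 CPM against 12.9, 50.1, 26.4 and 19.1 CPM (1.77 ± 0.38). Neither gene overlapped, and Psat1 was tight within both groups. Jun, Mcm5 and Lig1 were the other higher genes of the 12 with the lowest p, and Krtcap3, Slc26a11, Slc17a9, Gatsl3, Trim14, Tmem243 and Klhdc1 were lower, with log2 differences from -1.40 ± 0.33 (Klhdc1) to -0.94 ± 0.21 (Trim14). All 12 separated the groups, which their choice by p in the same comparison favours, so that nothing is read from it (over all genes 4.13% did, 2.32% on the lower side).

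Genes of resting, naive T cells were on the lower side, 10 of 12 tested, with a median of -0.68 and 4 lower at an unadjusted p below 0.05 (4.09% of all genes). With Xist as a covariate the median was -0.27 with 0 such genes. Without Eµ-TCL1 spleen 1 there were 8, beside 1784 of 10358 genes in either direction in that fit. Without Eµ-TCL1 spleen 3 the median was -0.44 with 2. Without any 1 of Eµ-TCL1 spleens 2 and 4 and Eµ-PRMT5/TCL1 spleens 1 and 2 there was 1. Lef1, a transcription factor of naive T cells, was 135, 210, 260 and 254 CPM in Eµ-TCL1 and 126, 124, 130 and 108 CPM in Eµ-PRMT5/TCL1 spleens (log2 difference -0.81 ± 0.23, edgeR adjusted p = 0.548). Il7r, the receptor of a survival cytokine, was 89.5, 324, 339 and 628 CPM against 139, 149, 195 and 56.7 CPM (-1.35 ± 0.55, and -0.89 without Eµ-TCL1 spleen 4). Eµ-TCL1 spleen 1 was the low one of its group for both. Klf2 (-0.68 ± 0.29) and its target S1pr1 (-0.72 ± 0.30), which let T cells leave tissue, also overlapped.

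Receptors of exhausted T cells were above 0 for 11 of 16 genes, with a median of 0.54 and 2 higher at an unadjusted p below 0.05 (5.00% of all genes). Single spleens decided these values. Only 8 of 16 were above 0, with a median of 0.054, without Eµ-PRMT5/TCL1 spleen 4, and without Eµ-TCL1 spleen 1 the median was 1.92 with 11 of 15 genes at an unadjusted p below 0.05. Without Eµ-TCL1 spleen 3 or 4 the median was 0.14 or 0.31. Havcr2 (Tim-3) was 10.8, 4.47, 1.98 and 2.11 CPM in Eµ-TCL1 and 8.59, 21.7, 17.9 and 40.6 CPM in Eµ-PRMT5/TCL1 spleens (log2 difference 2.17 ± 0.61). Nr4a2, a nuclear receptor of chronic stimulation, differed by 2.30 ± 0.80, and Klrg1, a receptor of effector cells, by 2.46 ± 0.84, with the highest value of both in Eµ-PRMT5/TCL1 spleen 4. Leaving it out brought Nr4a2 to 1.03 and Klrg1 to 1.39. Cells with a UMI of Pdcd1 (PD-1) were 46.6%, 6.01%, 4.89% and 1.56% in Eµ-TCL1 and 14.5%, 15.9%, 22.4% and 28.2% in Eµ-PRMT5/TCL1 spleens. Eµ-TCL1 spleen 1 again lay apart, above all the others, while the other Eµ-TCL1 spleens lay below every Eµ-PRMT5/TCL1 spleen (exact p = 0.714, adjusted 0.762). The difference of 5.48 points ran from 1.08 without Eµ-TCL1 spleen 4 to 16.1 without Eµ-TCL1 spleen 1. Without thinning the means were 19.8% and 31%. In B cells, which set the background here, the thinned share was 0.345% and 1.04%.

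T cells with a UMI of Ccl5, a chemokine of memory and effector CD8 cells, made up 83.4% to 98.9% in Eµ-TCL1 and 54.3% to 97.0% in Eµ-PRMT5/TCL1 spleens (exact p = 0.343), beside 2.10% and 1.55% of B cells. The 54.3% was that of Eµ-PRMT5/TCL1 spleen 1, with 213 T cells, without which the difference went from -11.3 to -1.69 points. Cells with a Cd4 UMI were 19%, 1.44%, 0.743% and 0.410% against 13.7%, 6.37%, 1.90% and 8.98% (exact p = 0.600), beside 0.00408% and 0.0122% of B cells. Their difference of 2.35 points ran from 0.356 without Eµ-PRMT5/TCL1 spleen 1 to 6.88 without Eµ-TCL1 spleen 1. Foxp3, the factor of regulatory T cells, was seen in 0.186%, 0.186%, 0.0669% and 0.0280% against 2.26%, 0.178%, 0.196% and 1.34% of T cells (exact p = 0.0857, adjusted 0.343). Its level differed by 2.14 ± 0.81 on the log2 scale, from 1.58 CPM to 7.23 CPM. Spleens 1 and 4 of the Eµ-PRMT5/TCL1 group held the high shares, and without spleen 1 the difference went from 0.877 to 0.456 points. Without thinning the means were 0.243% and 2.17%, with an exact p of 0.0286 and an adjusted p of 0.305, and B cells held 0.0143% and 0.0231% at 1500 UMIs.

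**Figure D4:**
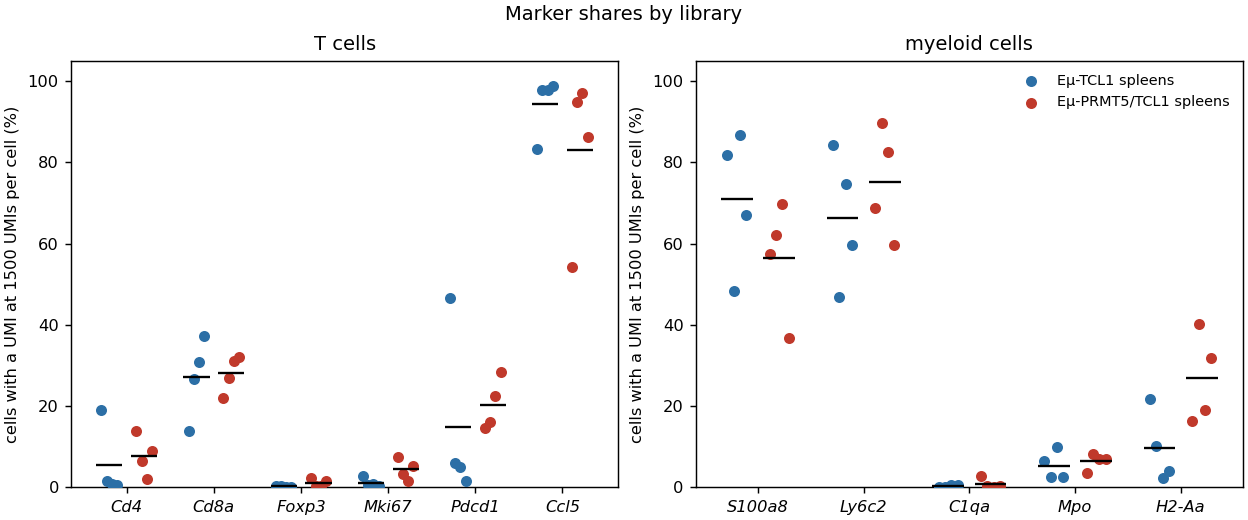
Share of T cells (left) and myeloid cells (right) with a UMI of each gene at an expected 1500 UMIs per cell (%, vertical axis), 1 point per spleen, Eµ-TCL1 in blue and Eµ-PRMT5/TCL1 in red, black lines for group means. Eµ-TCL1 spleen 1 stands apart for Cd4 (19%) and Pdcd1 (46.6%), and H2-Aa is seen in 2.17% to 21.8% of Eµ-TCL1 and 16.4% to 40.2% of Eµ-PRMT5/TCL1 myeloid cells.

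Immediate early genes in T cells were above 0 for 26 of 27 genes, with a median of 0.65 and 7 higher at an unadjusted p below 0.05 (5.00% of all genes). With Eµ-PRMT5/TCL1 spleen 4 left out this was 20 of 27, with a median of 0.22 and 3 genes (765 of all 11210 genes in that fit). With Eµ-PRMT5/TCL1 spleen 2 left out, and with Xist as a covariate, 14 genes had an unadjusted p below 0.05. Over all genes 937 of 10330 and 772 of 10697 had such a p in these fits. Jun was 18.2 to 31.6 CPM in Eµ-TCL1 and 38.2 to 87.0 CPM in Eµ-PRMT5/TCL1 spleens (log2 difference 1.43 ± 0.31), and Fos 19.4 to 40.6 against 43.8 to 210 CPM (1.83 ± 0.49). The chaperone Hspa1a (1.25 ± 0.33) was likewise higher without overlap, as 1.81% of all genes were. Genes of MHC class II presentation were above 0 for 9 of 9, with a median of 1.48 and 6 at an unadjusted p below 0.05, with H2-Ab1 at 1.78 ± 0.57 and Cd74 at 173 to 369 against 150 to 1695 CPM. T cells of the mouse make little of these proteins, and the summed markers of B cells in the T-cell class, all 11 of which had a UMI and which include Cd74, were 372 to 578 CPM in Eµ-TCL1 and 338 to 1807 CPM in Eµ-PRMT5/TCL1 spleens. In RNA outside cells, from barcodes too poor in UMIs to be cells, Cd74 was at 3998 to 15781 CPM, lowest in Eµ-PRMT5/TCL1 spleen 2. That spleen had the highest class II level in T cells, at 2.01 on the scale of the lists given above, and 26.4% of its kept barcodes were myeloid cells. Without Eµ-PRMT5/TCL1 spleen 2 the class II median was 0.93 with 1 gene at an unadjusted p below 0.05, with H2-Ab1 at 1.17, and without Eµ-TCL1 spleen 3 or 4 there were 2. Among T cells with no Cd79 UMI and at least 4 CD3 UMIs the median was 2.38. In that fit 7 of 9 genes had an unadjusted p below 0.05, as had 996 of all 10335 genes. With doublets left out the median was 1.97. Myeloid markers, on which the T-cell gate set no limit, were 266 to 7557 CPM in the T-cell sums. The parts of RNA outside cells, B cells and myeloid cells in the class II difference were not tested.

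In myeloid cells 12 of 14 mature neutrophil genes had log2 differences below 0 and 9 of 9 genes of MHC class II presentation above 0, and no gene passed the edgeR test. edgeR called 0 of 9456 genes (0.00%), with 450 at an unadjusted p below 0.05 (4.76%), while 2 passed in DESeq2 (0.0212%), Egr1 and Ifi205. Egr1, an immediate early transcription factor, was 2.25, 0, 2.19 and 0.897 CPM in Eµ-TCL1 and 28.4, 3.67, 9.92 and 57.2 CPM in Eµ-PRMT5/TCL1 spleens (log2 difference 3.52 ± 0.87, and 2.21 without Eµ-PRMT5/TCL1 spleen 4). Ifi205, an interferon-inducible gene, was 10.5, 12.9, 5.00 and 1.35 CPM against 26.1, 31.4, 24.5 and 110 CPM (2.87 ± 0.62). Both separated the groups, which their choice by p favours (3.56% of all genes did), and both had an edgeR adjusted p of 0.999. In RNA outside cells Egr1 was 380 CPM in Eµ-PRMT5/TCL1 spleen 4 and 42.9 to 150 CPM in the other spleens, and the part of this was not tested.

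The other myeloid genes with the lowest p were Pde4dip, Ms4a4c, Gpr18 and Csf1 on the higher and BC100530, Stfa2, F630028O10Rik, Rflnb, Padi4 and BC037034 on the lower side. Csf1, the growth factor of macrophages, was 3.22 to 12.4 CPM in Eµ-TCL1 and 14 to 26.1 CPM in Eµ-PRMT5/TCL1 spleens (log2 difference 1.38 ± 0.35). Padi4, the arginine deiminase of neutrophil extracellular traps, was 216, 283, 282 and 267 CPM against 171, 140, 167 and 153 CPM (-0.73 ± 0.18). Stfa2, a stefin of neutrophils, was 10.8 to 71.3 against 0 to 4.74 CPM (-3.38 ± 0.75). All but BC037034 separated the groups, which their choice by p in the same comparison favours, so that nothing is read from it (over all genes 3.56% did).

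Neutrophil genes and genes of antigen presentation lay on opposite sides. Mature neutrophil genes were below 0 for 12 of 14, with a median of -0.40, and the collagenase Mmp8 (-0.66 ± 0.24) and the gelatinase Mmp9 (-0.64 ± 0.28) had an unadjusted p below 0.05, beside 2.18% of all genes on the lower side. Both were lower without overlap, as 1.57% of all genes were. The level of the list stood apart in Eµ-PRMT5/TCL1 spleen 4 (-1.33 on the scale given for T cells). The other Eµ-PRMT5/TCL1 spleens were at 0.22, -0.15 and 0.38 against 0.31 to 0.45 in Eµ-TCL1 spleens, and without spleen 4 the median was -0.24 with 10 of 14 genes below 0 and Mmp9 at -0.42. Genes of MHC class II were above 0 for 9 of 9 (median 1.15), with H2-Eb1 at 409, 444, 50.6 and 122 CPM in Eµ-TCL1 and 957, 781, 346 and 508 CPM in Eµ-PRMT5/TCL1 spleens (1.36 ± 0.59). Myeloid cells with an H2-Aa UMI were 9.51% ± 8.88 and 26.9% ± 11.2 (SD, n = 4 each, exact p = 0.0857, adjusted 0.343), and 93.8% and 94.4% of B cells had one. Without thinning the means were 14.3% and 37.4%. Without Eµ-TCL1 spleen 1 the class II median was 1.75 with 7 of 8 genes at an unadjusted p below 0.05, against 1 of 9 with all spleens. Over all genes 615 of 8879 had such a p in that fit, against 450 of 9456 with all spleens. The summed B-cell markers in the myeloid class moved the same way, at 576 to 3263 CPM in Eµ-TCL1 and 2686 to 5807 CPM in Eµ-PRMT5/TCL1 spleens with all 11 markers seen. Their part in the class II values was not tested.

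Ligands that meet T cells were split, 7 of 11 above 0, with 3 higher at an unadjusted p below 0.05, as 2.58% of all genes were. Cd40, the costimulatory receptor, was 18.4, 25.7, 9.38 and 8.97 CPM in Eµ-TCL1 and 26.1, 30.9, 23.3 and 104 CPM in Eµ-PRMT5/TCL1 spleens (log2 difference 1.77 ± 0.52). Cd274 was 19, 16.1, 8.91 and 3.14 CPM against 14.2, 17.1, 29.6 and 67.1 CPM (1.51 ± 0.55), and Cd86 differed by 0.61 ± 0.24. These 3 overlapped, Cd40 by 1 spleen. Leaving out Eµ-PRMT5/TCL1 spleen 4 brought Cd40 to 0.98 and Cd274 to 0.89. The single member of the list without overlap lay on the lower side: Vsir (VISTA), an inhibitory ligand named after its values were seen, was 197 to 247 CPM in Eµ-TCL1 and 172 to 192 CPM in Eµ-PRMT5/TCL1 spleens (-0.29 ± 0.17, edgeR adjusted p = 0.999). Interferon-stimulated genes were above 0 for 33 of 36, with a median of 0.43 beside 50.2% of all genes above 0, and 2 had an unadjusted p below 0.05, Phf11b (1.51 ± 0.55) and the antiviral Oas1a (1.19 ± 0.47). Among 16 cytokines and chemokines 12 were above 0, with Cxcl10, which draws T cells, and Ccl6 (-0.64 ± 0.29) at an unadjusted p below 0.05. Cxcl10 was 71.6, 22.5, 95.9 and 6.28 CPM against 244, 85.7, 126 and 255 CPM (1.72 ± 0.64). Without Eµ-TCL1 spleen 1 the interferon median was 0.96 with 15 genes at an unadjusted p below 0.05 (615 of all 8879 genes in that fit). Without Eµ-TCL1 spleen 4 it was 0.11 with 0. Without Eµ-PRMT5/TCL1 spleen 4 it was 0.22 with 0, and the cytokine median went from 0.46 to 0.19. Immediate early genes were above 0 for 22 of 24 (median 0.64), with Atf3 at 1.05 ± 0.32. Without Eµ-PRMT5/TCL1 spleen 4 that was 15 of the 25 then tested, with a median of 0.07. Of 7 dendritic cell genes 6 were above 0 (median 0.81) and 3 were higher at an unadjusted p below 0.05. All 3 overlapped, among them Cd83 (2.95 ± 1.04) and Clec9a (1.27 ± 0.56). Leaving out Eµ-PRMT5/TCL1 spleen 4 brought Cd83 to 1.03 and the list to a median of 0.50 with 0 such genes, and leaving out Eµ-TCL1 spleen 3 gave 0.48 with 0. In RNA outside cells Eµ-PRMT5/TCL1 spleen 4 was highest for Cd83 (683 against 108 to 294 CPM) and Cd274 (110 against 26.1 to 51.5 CPM). The same held for Cd86 (92.3 CPM) and Atf3 (217 CPM), but not for Cd40 (52.3 CPM), Clec9a (1.60 CPM) or Cxcl10 (37.9 CPM). The summed B-cell markers in the myeloid class also ran higher in Eµ-PRMT5/TCL1 spleens, as given above. The part of both in these values was not tested.

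The other marker shares reported here at 1500 UMIs did not pass, with exact p from 0.257 to 0.857 and adjusted p from 0.718 to 0.857. S100a8, a calprotectin chain of neutrophils and monocytes, was seen in 71.0% ± 17.2 of Eµ-TCL1 and 56.5% ± 14.1 of Eµ-PRMT5/TCL1 myeloid cells, and Ly6c2, a surface protein of inflammatory monocytes, in 66.4% ± 16.5 and 75.1% ± 13.5 (SD, n = 4 each). C1qa and Mpo were seen in 0.223% and 5.24% of Eµ-TCL1 and 0.814% and 6.38% of Eµ-PRMT5/TCL1 myeloid cells. In B cells Myc was seen in 9.77% ± 2.46 and 15.4% ± 10.5, Ighd in 7.24% and 8.44%, Cd69 in 6.04% and 11.2%, and in T cells Cd8a in 27.1% and 28.0% (Eµ-TCL1 first). Single spleens carried several of these differences. For Myc in B cells it went from 5.64 to 0.505 points and for Cd69 from 5.16 to 0.0567 points without Eµ-PRMT5/TCL1 spleen 4, and for S100a8 from -14.5 to -7.88 points. Without Eµ-TCL1 spleen 2 the S100a8 difference was -22.0 points and that of Ly6c2 went from 8.78 to 2.28 points. The Mpo difference of 1.14 points was 0.193 when Eµ-TCL1 spleen 4 and 2.65 when Eµ-TCL1 spleen 3 was left out, and Ighd, Cd8a and C1qa turned in sign when 1 spleen was left out. In the class that sets the background, B cells for myeloid and T-cell genes and myeloid cells for B-cell genes, S100a8 and Ly6c2 were seen in 1.08% to 3.61% and Myc in 0.646% and 0.691% of cells.

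**Figure D5:**
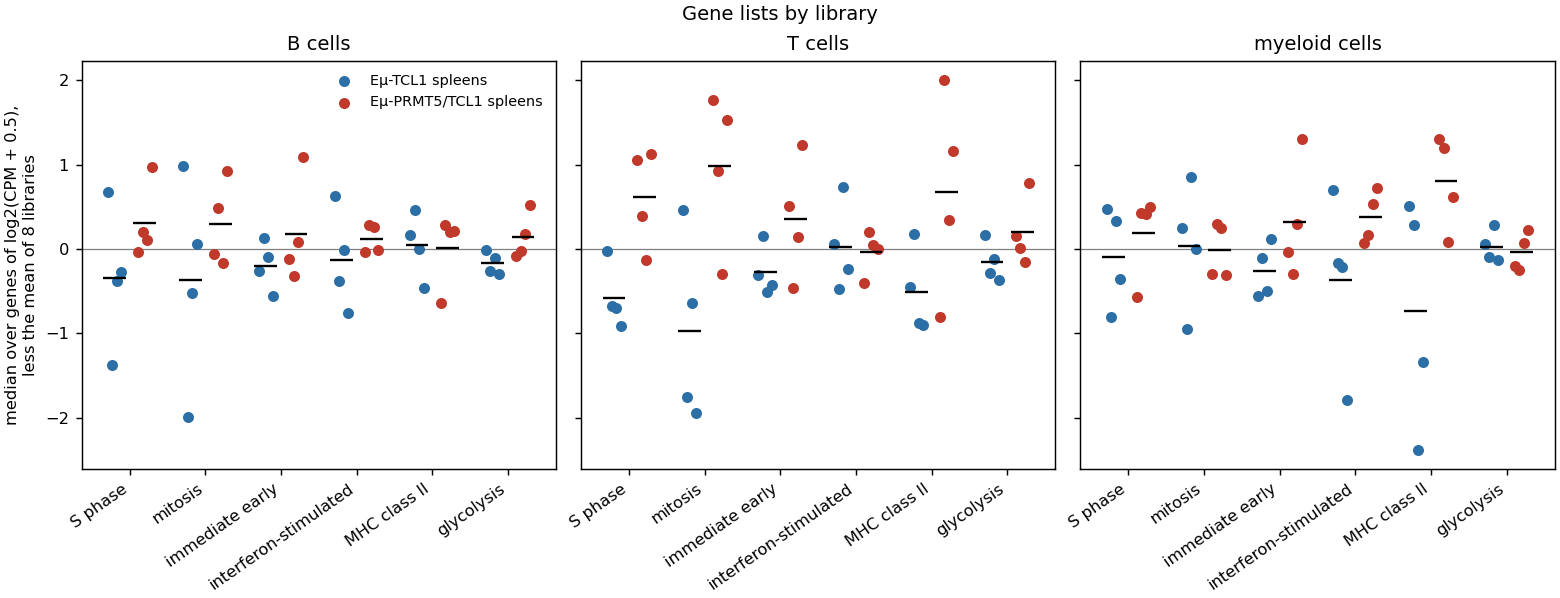
Level of 6 gene lists in B, T and myeloid cells: the median over genes of log2(CPM + 0.5) less the mean of the 8 spleens (vertical axis), 1 point per spleen, Eµ-TCL1 in blue and Eµ-PRMT5/TCL1 in red, black lines for group means. S phase genes in T cells run from -0.91 to -0.02 in Eµ-TCL1 and from -0.13 to 1.13 in Eµ-PRMT5/TCL1 spleens, and every list overlaps between the groups in every class.

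Set side by side in the order B, T and myeloid cells, S phase genes had median log2 differences of 0.56, 1.25 and 0.20, and mitosis genes of 0.43, 1.76 and -0.19. Interferon-stimulated genes had 0.10, -0.16 and 0.43, and MHC class II genes 0.03, 1.48 and 1.15. Immediate early genes had 0.46, 0.65 and 0.64. Leaving out 1 spleen turned the sign of 4 of these medians. Those were interferon genes in B cells (-0.044 without Eµ-TCL1 spleen 4) and in T cells (0.12 without Eµ-TCL1 spleen 3), mitosis genes in myeloid cells (0.097 without Eµ-TCL1 spleen 3) and class II genes in B cells (as low as -0.14 without Eµ-PRMT5/TCL1 spleen 4). Of the 47 pairs of a list and a class, 0 had levels that separated the 4 Eµ-PRMT5/TCL1 spleens from the 4 Eµ-TCL1 spleens, and the differences between classes were not tested for lists.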

How the data were processed

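Unselected live spleen cells were profiled with 10x 3′ v2 chemistry. The values used are whole-number UMI counts per gene and barcode in unfiltered matrices (31053 genes, 737280 barcodes) as deposited by the authors. The submitters' processing notes name Cell Ranger 2.0.1, Seurat 2.2.1 and GRCm38, and the matrix headers 3.1.0. Labels gave group and replicate number.

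Barcodes of the 8 spleens were filtered and gated as described, and UMIs were summed per spleen and class. Genes were tested with edgeR 4.0.16 (R 4.3.3, quasi-likelihood, TMM scaling, filterByExpr with a minimum count of 10, robust), with Benjamini-Hochberg adjustment over all genes tested and a threshold of 0.05. CPM of genes tested are TMM-scaled, those of marker sums, Y-linked genes and RNA outside cells are not, and an SE is the log2 difference over the square root of F. Where B cells were set against another class, the mouse was a block. Shares were compared by exact two-sided permutation over spleens, Python 3.11.15 and scipy 1.17.1. The edgeR comparisons were tested on simulated counts. Of 2-fold changes 25.0% were called in B, 35.0% in T and 31.0% in myeloid cells. Of 4-fold changes it was 85.0%, 97.0% and 97.0%. P-values measure the spread between mice, and intervals cover counting error only.

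Marker shares are the expected share of cells with a UMI at 1500 UMIs per cell, over all possible thinnings. This replaced a single random thinning after the results had been seen, because 2 draws gave different p-values.

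Named genes were, in each class, the 12 with the lowest p at a group mean of 20 CPM or more, up to 4 per list with the lowest p, the genes the study names, and Prmt5 and its partners. Immunoglobulin, T-cell receptor, haemoglobin, sex-linked and gate genes were left out of the 12. Eps8l1 and Lta, Xbp1 and Spib in B cells, Rrm2, Top2a and Tnf in T cells, and Vsir in myeloid cells were chosen after their values were seen. All lists, members and tests were chosen with earlier results of these data known. Scrublet's own threshold marked 1 to 238 barcodes per spleen, so the alternative that leaves out doublets removed the highest scores at 0.8% per 1000 cells. Other alternatives were DESeq2 1.42.0, other scaling, filters, gates and samples, Xist as a covariate and a replicate block. Of 16 marker shares, 1 is not reported here. Positions are GENCODE annotations of GRCm38.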

Additional observations from a re-analysis of the deposited data

Results flagged for a closer look

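In 23 of 232 groups of 4 spleens (9.91%), 1 spleen stood further from the other three than Dixon's 95% limit allows. Independent, normally distributed values would give about 1 in 20. Many of these values come from related genes of the same spleens, so that no excess is read from the share. Eµ-TCL1 spleen 1, the only one of its group with Xist above Y-linked genes, stood apart in this way for T-cell shares. Cd4 was seen in 19% of its T cells against 0.410% to 1.44% in the other Eµ-TCL1 spleens, Pdcd1 in 46.6% against 1.56% to 6.01%, Mki67 in 2.81% against 0.271% to 0.683%, and Ccl5 in 83.4% against 97.8% to 98.9%. Its B cells held 96.3 CPM of Il10 against 16.1 to 23.6 CPM.

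Eµ-PRMT5/TCL1 spleen 4, the only one of its group with Y-linked genes above Xist, stood apart in all 3 classes. In B cells Cd69 was seen in 26.5% against 4.39% to 7.28% of cells, Cd38 was 183 CPM against 99.2 to 103 CPM, Egr1 449 CPM against 27.1 to 84.8 CPM, Ldha 587 CPM against 297 to 344 CPM, and Pgk1 197 CPM against 117 to 129 CPM. In T cells Klrg1 was 53.4 CPM against 5.16 to 13.1 CPM and Nr4a2 385 CPM against 33.7 to 82.5 CPM. In myeloid cells Cd40 was 104 CPM against 23.3 to 30.9 CPM and Ifi205 110 CPM against 24.5 to 31.4 CPM.

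The remaining values came from other spleens. In Eµ-PRMT5/TCL1 spleen 3, T cells held 95.8 CPM of Prmt5 against 31.2 to 34.4 CPM. In Eµ-PRMT5/TCL1 spleen 1, with 54 myeloid cells, C1qa was seen in 2.67% against 0.108% to 0.259%, Cd86 was 37.9 CPM against 54.3 to 55.6 CPM, and Clec9a 9.48 CPM against 2.63 to 3.59 CPM. In Eµ-TCL1 spleen 2, Leprotl1 was 75.2 CPM in B cells against 98.1 to 101 CPM, and Cd83 19.3 CPM in 47 myeloid cells against 3.59 to 4.51 CPM. In Eµ-TCL1 spleen 4, Spib was 94.7 CPM in B cells against 188 to 197 CPM, and Hspa1a 31.2 CPM in T cells against 13.4 to 15.4 CPM. Eps8l1 was 0.0903 CPM in B cells of Eµ-TCL1 spleen 3 and 0 in the other three.

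The B-cell difference of Eps8l1 was larger than its T-cell difference, by 8.20 in log2 units with an adjusted p of 0.0477 in edgeR.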

How the results depend on the processing

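Sex and thin classes limit these values: 3 of the 4 Eµ-TCL1 but 1 of the 4 Eµ-PRMT5/TCL1 spleens had Y-linked genes above Xist, and 47 to 302 cells stood behind the thinnest sums. Eps8l1 kept its direction in B cells under every alternative run, with adjusted p from 3.8e-10 (DESeq2) to 0.410, and 0.409 with a replicate block. Same-numbered spleens did not deviate together (correlations -0.409 to 0.211, best with the own number in 1, 0 and 2 of 4 in B, T and myeloid cells), so numbers were not taken as pairs, and with the block 0 genes were called in each class. Of 1947 gene values under alternatives, 1890 kept direction and side of the threshold and 16 changed sign. As 0 genes passed the main test within a class, keeping the side mostly meant not passing again. Many of these genes were chosen by p in the same comparison, which favours an unchanged sign, so that nothing is read from these counts. With DESeq2, 31 of 96 named genes passed, beside 0.540% of all genes in B, 0.411% in T and 0.0212% in myeloid cells. Many were named for a low p on the same sums, which favours this.

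Genes called in B cells were 62 with DESeq2, and 1 without a filter on low counts and with all 13 spleens, Eps8l1 each time. DESeq2 called 44 genes in T and 2 in myeloid cells. With the higher UMI minimum 0 were called between B and T cells, and without a filter 1 between B and myeloid cells. Leaving out single spleens gave 0 to 1 in B, 0 in T, 0 to 1 in myeloid cells, 0 to 10 between B and T cells (10 when Eµ-TCL1 spleen 1 was dropped, 1 when it was Eµ-TCL1 spleen 2, 0 otherwise) and 0 between B and myeloid cells. The cause was not tested.

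Signs that turned belonged to small differences. Ccr7 in B cells was 1.09 with Xist as a covariate, 0.32 with the block and 0.0401 with stricter gates, Egr1 in B cells -0.54 with the block, and Prmt5 in myeloid cells -0.0091 with Xist. The T-cell share differed by -1.28 points of the 3 classes, -1.91 with the higher UMI minimum, -4.32 with the stricter mitochondrial limit and -0.0787 without doublets, the myeloid share by -0.119 with the stricter mitochondrial limit, and the Cd8a share in T cells by -2.96 unthinned. Without single spleens the log2 ranges were -0.43 to 0.33 (Ccr7), -1.31 to 0.0545 (Ctla4), -0.00096 to 0.39 (Cxcr5), -1.17 to 1.11 (Egr1) and -0.14 to 1.18 (Mki67) in B cells, and -0.15 to 0.26 (Wdr77) in T cells. Shares then differed by -12.8 to 14.4 (B), -5.15 to 8.17 (T), -4.67 to 3.82 (myeloid) and -8.37 to 0.774 points (other), and marker shares by -0.366 to 2.03 (Mki67, B), -0.0667 to 2.81 (Ighd, B), -3.61 to 4.22 (Cd8a, T) and -0.0281 to 0.827 points (C1qa, myeloid).

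Single random thinnings, chosen after seeing the data, gave a Foxp3 difference in T cells with an exact p of 0.0286 in the first draw and 0.286 in the second, and 0.0286 to 0.314 over 20 further draws. The Mpo share in myeloid cells was -0.269 points in the first draw. The lowest adjusted p of any marker share was 0.229 in the first 2 draws and 0.274 over the 20.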

Other observations

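Summed Y-linked genes (Uty, Kdm5d, Eif2s3y and Ddx3y) differed between the cell classes of single spleens, and this was noticed after the values had been seen. In Eµ-TCL1 spleen 2 they were 0.669 CPM (not TMM-scaled) in B cells (24 UMIs of 35873648), 136 CPM in T cells and 88.0 CPM in myeloid cells. The B-cell level was 0.493% of the T-cell level. In Eµ-TCL1 spleen 4 it was 11 CPM in B cells against 137 CPM in T cells (7.99%) and 94.3 CPM in myeloid cells. In the other spleens with Y-linked genes above Xist, B cells held 65.8% (Eµ-TCL1 spleen 3) and 77.5% (Eµ-PRMT5/TCL1 spleen 4) of the T-cell level. Eµ-TCL1 spleens 2 and 4 are the mice whose B cells shared Ighv12-3 as leading heavy chain V gene. Xist was at most 0.248 CPM in each class of these 4 spleens. The cause was not tested.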
